A study of Homo sapiens with 44 samples.

Results

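The 9 genes described here encode the contractile apparatus of smooth muscle and its main transcriptional switch. They are ACTA2, ACTG2 and MYH11 (filament proteins), TAGLN, CNN1, CALD1, SMTN and LMOD1 (actin-binding proteins) and MYOCD (a transcriptional coactivator). They were chosen by name, and GENCODE matched each symbol to 1 of the 60499 gene identifiers in the count table. All 9 were among the 22955 genes that passed the filter on low counts.

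The RNA was from 44 culture wells of H1, a widely used line of human embryonic stem cells, in 12 groups. The labels name no genetic change in any group. One group of 3 wells was pluripotent cells kept on laminin LN-521. All other wells carried LN-521 and LN-221, 2 basement membrane laminins, and were taken towards cardiovascular cells. Day 0 wells (3) were in Nutristem, a stem cell medium. Wells at days 1 and 3 (3 each) were in RPMI medium with insulin-free B27 supplement and CHIR99021, which blocks the kinase GSK3 and so switches on Wnt signalling. Day 5 wells (5) had the same base medium with IWP2, an inhibitor of Wnt production added at day 3. Wells at days 7 and 9 (5 each) had the insulin-free medium alone. Wells at days 11 (5), 14, 20, 30 and 90 (3 each) had RPMI medium with CTS B-27 supplement. The series text speaks of 3 wells at day 11, and the labels list 5, all of which were used. The labels call the wells biological replicates of 1 cell line, so the p values measure the spread between wells of that line.

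Smooth muscle cells contract when myosin filaments pull on actin filaments of a smooth muscle type, and calponin, caldesmon, transgelin and smoothelin sit on those actin filaments. Most of the genes are switched on by serum response factor (SRF), which binds a DNA motif called the CArG box, and myocardin (MYOCD) is its strong partner. In the embryo several of these genes, ACTA2 and TAGLN among them, are also switched on for a time in heart muscle, and MYOCD acts in both tissues.

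RefSeq promoter sequences (GRCh38.p14) were available for 13 start sites of 6 of the genes, namely ACTA2, CNN1, ACTG2, SMTN, LMOD1 and CALD1. TAGLN, MYH11 and MYOCD had no entry. The 250 bases before each start were searched for the CArG box and for a CArG-like box, which has 1 C or G in the core of A and T. Both patterns read the same on either strand. A full box was found at 1 start each of ACTG2 and SMTN, and a CArG-like box at 1 start each of ACTA2 and CALD1. Of all 35116 promoters in the table, 407 (1.16%) held a full box and 2472 (7.04%) held either. The windows are shown because SRF, through this box, is the textbook regulator of these genes. Each has 30 bases and reads 5′ to 3′ on the strand of the gene, with the box in capitals.
ACTG2, chr2:73892888-73892917, plus strand: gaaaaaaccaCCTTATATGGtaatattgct
ACTG2, chr2:73892925-73892954, plus strand: cgtcagctggCCTTTTTAGGgactttgttt
SMTN, chr22:31084942-31084971, plus strand: cggggccgggCCATATAAGGaaaagctagg
ACTA2, chr10:88952875-88952904, minus strand: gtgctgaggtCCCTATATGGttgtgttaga
ACTA2, chr10:88952825-88952854, minus strand: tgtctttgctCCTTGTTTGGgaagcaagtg
CALD1, chr7:134711463-134711492, plus strand: ccagaggtccCCTAAAGAGGaatacattct
The ACTG2 boxes began 110 and 73 bases before the start site, the SMTN box 44, the ACTA2 boxes 121 and 71, and the CALD1 box 26. The window of the second ACTG2 box overlaps an annotated exon of ACTG2, and the other windows overlap no annotated exon. The CALD1 start used here lies before the start of the gene in GENCODE 29. A match describes letters in the window and says nothing about binding in these cells.

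Total estimated counts ranged from 6937136 to 33498022 per library, so that 3 counts, taken as the least a library can show, were 0.0896 to 0.4325 CPM, the usual count scaled to a common library size. RNA integrity numbers ran from 7.4 to 10. CPM values below are scaled between libraries, each value is 1 well, and means carry the SD over wells. By rank correlation across genes, each of the 9 wells of days 14, 20 and 30, and 1 day 90 well, was most like a well of another day. Day 11 wells 1 and 2, day 90 well 4 and day 1 well 2, numbered as the labels' replicates, differed from the rest of their group in the genes described here, and their values are given with each result. RNA of a well is a mixture, and fewer cells of a type and less RNA per cell cannot be told apart.

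**Figure D1:**
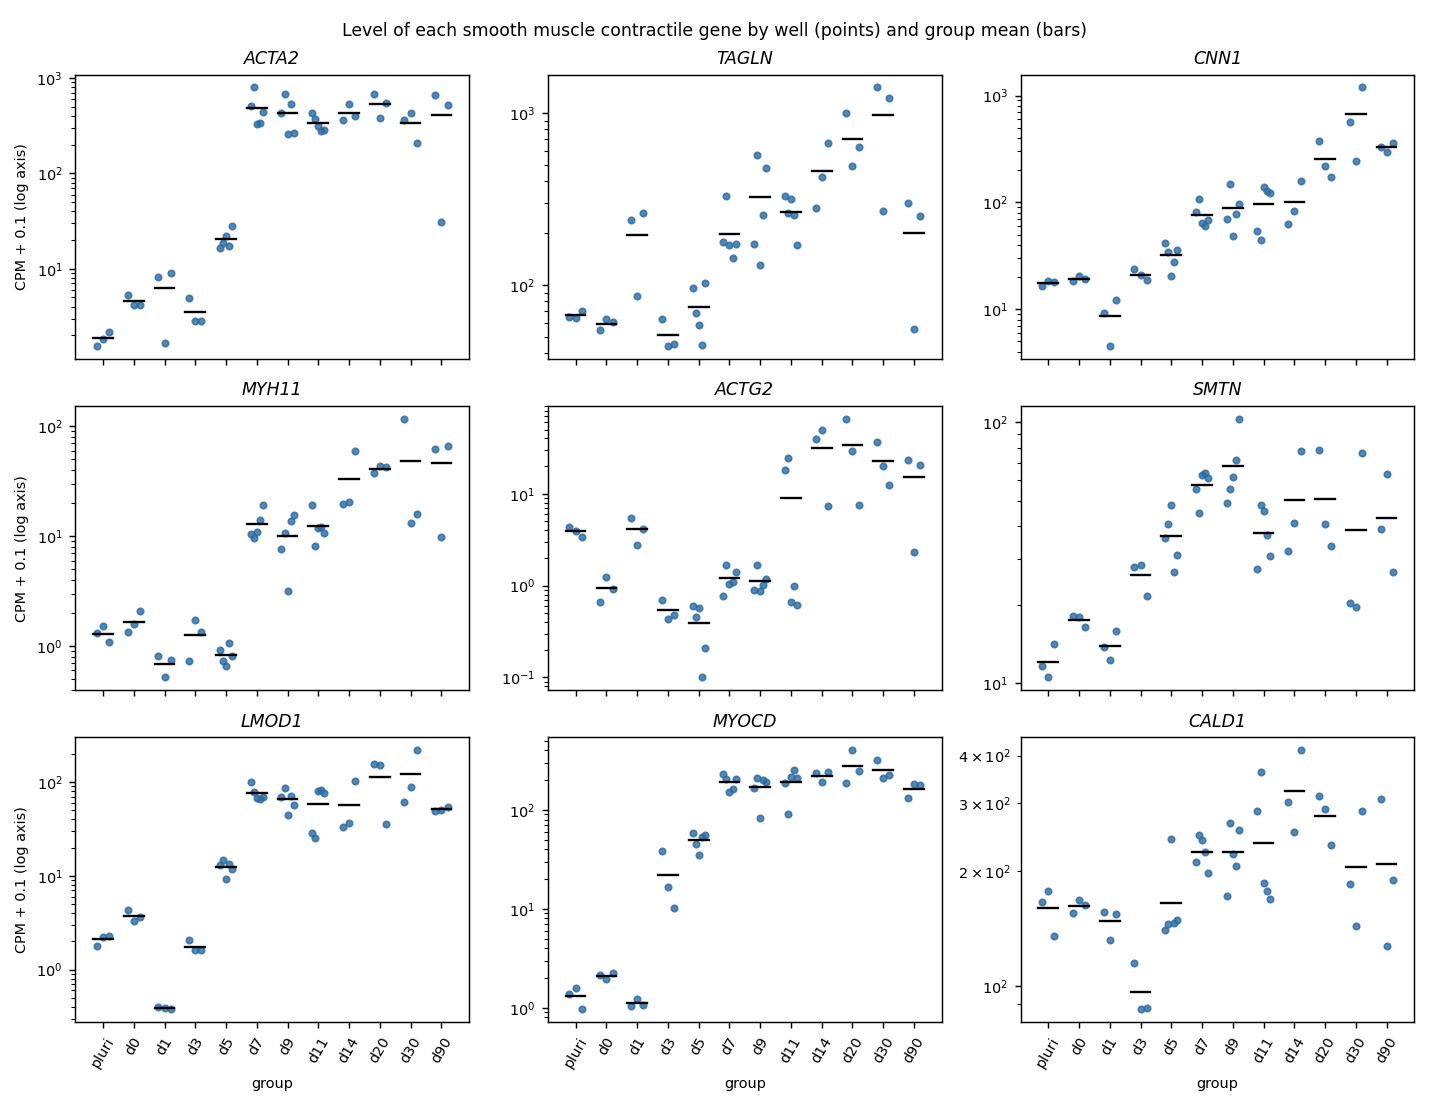
Level of each of the 9 genes in each of the 44 wells (points, CPM + 0.1 on a log axis, 1 panel per gene) and the group mean (bars) from pluripotent cells to day 90. ACTA2 lay between 1.45 and 28.1 CPM up to day 5 and between 30.5 and 795 CPM from day 7, whereas CALD1 stayed between 87.0 and 413 CPM throughout.

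ACTA2 encodes alpha smooth muscle actin (ENSG00000107796, chromosome 10, 88935074 to 88991339, minus strand, GRCh38). It was low until day 3 and rose in a pair of steps. Pluripotent wells had 1.45, 1.75 and 2.08 CPM, day 0 wells 5.24, 4.06 and 4.07, and day 3 wells 4.85, 2.76 and 2.76. Day 5 wells had 16.6, 18.5, 22.1, 17.1 and 28.1 CPM, and day 7 wells 508, 795, 328, 339 and 436. No day 5 well reached a day 7 well, and none of day 3 reached day 5. The rise to day 5 was 2.57 on the log2 scale (SE 0.55, edgeR adjusted p 0.00081), and that to day 7 was 4.55 (SE 0.48, adjusted p 6.4e-09).

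After day 7 the ACTA2 level kept no clear trend, with group means from 334 to 537 CPM, and none of the 6 later steps was called. Day 90 was the most uneven group, with 663 and 523 CPM in replicates 2 and 5 and 30.5 in replicate 4. The gene overlaps STAMBPL1, FAS and an antisense gene on the other strand. In pluripotent wells its level was 0.525% to 0.547% of the mean of the other libraries in the same sequencing lane, and from day 0 to day 3 it was 0.603% to 3.69%. Whether reads of other libraries contributed to these low levels was not tested.

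MYH11, the smooth muscle myosin heavy chain (ENSG00000133392, chromosome 16, 15703172 to 15857033, minus strand), followed ACTA2 without the first step. Up to day 5 every well lay between 0.418 and 1.97 CPM. Day 5 wells had 0.813, 0.639, 0.557, 0.956 and 0.707 CPM, and day 7 wells 10.4, 9.5, 10.8, 14.0 and 19.2. The groups did not overlap, and the log2 change was 4.11 (SE 0.54, edgeR adjusted p 7.6e-07). On log2(TPM + 1) the change came to 0.82 (limma adjusted p 0.25), where the mean TPM (transcripts scaled to length and depth) was 0.11 at day 5 and 1.03 at day 7.

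MYH11 then stood at 10.0 ± 4.93 CPM at day 9 (SD, n = 5) and at 46.0 ± 31.5 at day 90 (SD, n = 3), a log2 change of 2.20 (SE 0.50, edgeR adjusted p 0.00052). The day 90 wells 2 and 5 had 61.7 and 66.6 CPM, and replicate 4 had 9.81, within the range of day 9. Without that well the change was 2.69 (adjusted p 3.6e-05). On TPM it was 0.63 or 1.18, depending on the pseudocount, and was not called (limma adjusted p 0.17 and 0.12). On those TPM scales the median difference in log2 change from the main fit was -0.48 and -0.56 over the genes in both fits. At day 30 replicate 1 had 117 CPM and the others 13.0 and 15.8. MYH11 overlaps NDE1 and 3 other genes, and because the counting setting for strand is not given in the sources used here, reads could have been shared between them.

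ACTG2 encodes the gamma actin of visceral smooth muscle (ENSG00000163017, chromosome 2, 73892314 to 73919865, plus strand), whose promoter windows with full CArG boxes are printed above. Pluripotent wells had 4.22, 3.86 and 3.32 CPM, day 0 wells 0.571, 1.13 and 0.829, and day 1 wells 5.36, 2.67 and 4.08. The day 1 wells lay above all day 0 wells, but this change was not called (log2 change 2.25, edgeR adjusted p 0.10). The fall to 0.596, 0.335 and 0.377 CPM at day 3 was called (log2 change -3.20, SE 1.08, edgeR adjusted p 0.022). Without any 1 of day 1 replicate 1, day 3 replicate 2 or day 3 replicate 3 the adjusted p was 0.062, 0.084 or 0.08, and on TPM it was 0.21 and 0.096 with limma.

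From day 5 to day 9 ACTG2 lay between 0 and 1.60 CPM, and 2 day 5 wells were at or under 3 counts. At day 11 the 5 wells split into 18.1 and 24.6 CPM (replicates 1 and 2) and 0.559, 0.890 and 0.518 (replicates 5, 6 and 7). The change from day 9 was called (log2 change 3.12, SE 0.78, edgeR adjusted p 0.019) but rested on those 2 wells. Without both it was -0.65 (adjusted p 0.66), and with either one left out it was 2.28 or 2.69 and was not called. All wells of days 14, 20 and 30 had 7.24 CPM or more, with a maximum of 65.2 at day 20. Day 90 wells had 23.0 and 20.2 CPM, and replicate 4 had 2.23.

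The actins can be set against each other per transcript length. ACTA2 made up 0.0492 ± 0.00642% of the TPM of 6 actin genes in pluripotent wells (SD, n = 3), 0.523 ± 0.102% at day 5 and 8.35 ± 2.16% at day 7 (SD, n = 5 each). It was 11.3 ± 4.12% at day 14 and 7.71 ± 6.14% at day 90 (SD, n = 3 each). The share of ACTC1, the cardiac actin, rose from 4.24 ± 1.41% at day 5 to 24.8 ± 4.72% at day 7 (SD, n = 5 each) and stood at 62.9 ± 13.7% at day 90 (SD, n = 3). ACTB, a cytoplasmic actin, had 53.6 ± 1.35% in pluripotent wells and 10.4 ± 0.791% at day 90. ACTG2 never passed a mean of 0.898%, its day 14 value. These shares are descriptions, and the test of a difference was made on log2 ratios.

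The log2 ratio of ACTA2 to ACTC1 in TPM was -1.93 ± 0.34 at day 0 (SD, n = 3), -1.94 ± 0.28 at day 9 (SD, n = 5) and -3.85 ± 2.71 at day 90 (SD, n = 3). The difference between days 9 and 0 was -0.01 (two-sided exact permutation test, p 1). Between days 90 and 9 it was -1.91 (exact permutation p 0.0714, adjusted 0.0952 over 8 ratio tests). Day 90 replicate 4 had the lowest ratio, -6.98, and without it the difference was -0.34. This test doubles the smaller one-sided p, so with 3 wells against 5 it could give no p below 0.0357. The 5 ratio tests at that value had an adjusted p of 0.0571.

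**Figure D2:**
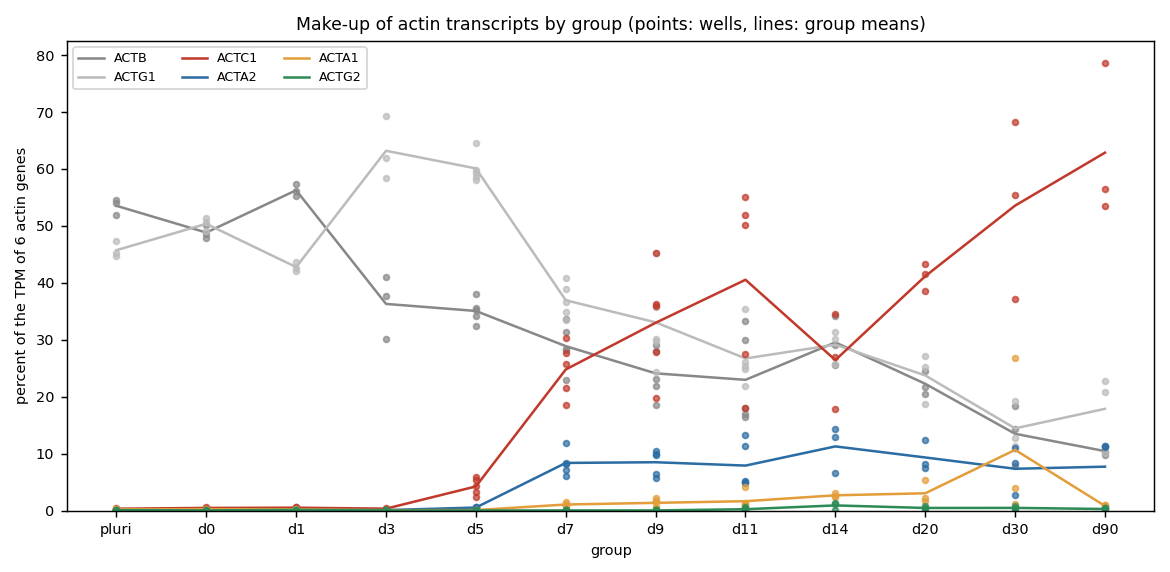
Share of each of 6 actin genes in their summed TPM (percent, y axis) by group, with points for wells and lines for group means. The ACTA2 share is near 0 until day 5 and averages 8.35% at day 7 and 7.71% at day 90, while ACTC1 averages 62.9% at day 90.

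TAGLN encodes transgelin, also called SM22 alpha (ENSG00000149591, chromosome 11, 117199321 to 117204782, plus strand). It was present from the start and was higher at day 1 than at day 0. Wells had 54.7, 62.8 and 60.6 CPM at day 0, 237, 86.3 and 260.2 at day 1, and 63.4, 44 and 45.2 at day 3. Every day 1 well lay above every day 0 and day 3 well. The rise was 1.71 on the log2 scale (SE 0.53, edgeR adjusted p 0.016) and the change to day 3 was -1.94 (SE 0.53, adjusted p 0.0048). The rise was lost on TPM (limma adjusted p 0.074 and 0.075 with pseudocounts of 1 and 0.1) and without day 0 replicate 1, day 1 replicate 1 or day 1 replicate 3 (edgeR adjusted p 0.057, 0.055 and 0.073).

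The low day 1 well, replicate 2, also had less of ACTA2 (1.57 CPM against 8.12 and 8.94) and CNN1 (4.43 against 9.13 and 12.2). In that well SRF was 56.7 CPM against 81.4 to 88.5 in the other 2, MYL9 30.4 against 56.9 to 58.1, TPM1 133 against 244 to 270 and VCL 185 against 293 to 339. Their part in the result was not tested.

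TAGLN rose again to day 7 (log2 change 1.42, SE 0.40, edgeR adjusted p 0.026), with day 7 wells at 178, 328, 169.5, 142 and 173 CPM against 44.7 to 102 at day 5. Leaving out day 7 replicate 10, the well at 328, gave 1.16 (adjusted p 0.11), and day 5 replicates 2, 3 or 4 left out gave adjusted p values of 0.061, 0.063 and 0.091. TPM gave 1.16 and 1.18 (limma adjusted p 0.29 and 0.28). Group means were 456 ± 198 CPM at day 14, 708 ± 261 at day 20 and 965 ± 610 at day 30 (SD, n = 3 each), and none of these steps was called. Day 30 wells had 1402, 1226 and 268 CPM.

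At day 90 TAGLN had 297, 54.9 and 250.2 CPM, a log2 change of -2.26 from day 30 (SE 0.53, edgeR adjusted p 0.0059). Day 30 replicate 10, at 268 CPM, lay between the 2 higher day 90 wells, so the groups overlapped. That library had an RNA integrity number of 7.4, against 9.5 and 10 in the other day 30 wells. Its total was 11715812 counts, against 27411186 and 23661479. By rank correlation across genes it was most like day 90 replicate 5. The part of these in the result was not tested. Without day 90 replicate 4 the change was -1.79 (adjusted p 0.04), and in a fit of these 2 groups alone it was -2.24 (adjusted p 0.36). TAGLN overlaps PCSK7 on the other strand.

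CNN1, calponin 1 (ENSG00000130176, chromosome 19, 11538717 to 11550323, plus strand), was 18.2, 20.4 and 19.0 CPM at day 0 and lower in every day 1 well, at 9.13, 4.43 and 12.2. This change missed the threshold (log2 change -1.16, SE 0.44, edgeR adjusted p 0.057) but passed it with DESeq2 (adjusted p 0.029) and in a fit of these 2 groups alone (edgeR adjusted p 0.0058). CNN1 had 23.6, 20.7 and 18.6 CPM at day 3, called higher than day 1 (log2 change 1.28, SE 0.45, edgeR adjusted p 0.027). The call was lost on log2(TPM + 1) (limma adjusted p 0.082) and without day 1 replicate 1 or 2 or day 3 replicate 1 or 2 (adjusted p 0.067, 0.16, 0.078 and 0.057).

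From day 5 to day 7 CNN1 rose by a log2 change of 1.25 (SE 0.34, edgeR adjusted p 0.017), and wells of the 2 days did not overlap. Leaving out day 5 replicate 3 or 4 or day 7 replicate 10 gave adjusted p values of 0.057, 0.053 and 0.064, and on TPM the change was 0.89 and 0.94 (limma adjusted p 0.28 and 0.27). Day 20 wells had 377, 220.1 and 172 CPM, day 30 wells 561.5, 245 and 1189, and day 90 wells 331, 296 and 357. The day 30 well at 245 CPM was replicate 10, which was also the lowest day 30 well for TAGLN. Unlike ACTA2, TAGLN, MYH11 and ACTG2, CNN1 in day 90 replicate 4 was close to the other wells. Day 90 was called above day 9 (log2 change 1.89, SE 0.38, edgeR adjusted p 9.9e-05), with all 3 wells above the highest day 9 well, 149 CPM.

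CNN3 is a relative of CNN1 that non-muscle cells make. The log2 TPM ratio of CNN1 to CNN3 was -3.35 ± 0.09 at day 0 (SD, n = 3), -1.46 ± 0.25 at day 9 (SD, n = 5) and 1.39 ± 0.91 at day 90 (SD, n = 3). Wells of the 3 days did not overlap. The differences were 1.89 and 2.84 (exact permutation p 0.0357 each, the smallest this test can give). The ratio of MYH11 to the non-muscle myosin MYH10 likewise went from -7.70 ± 0.21 to -5.57 ± 0.77 and -2.97 ± 1.32, with differences of 2.12 and 2.61 at the same p. With a pseudocount of 1 in place of 0.1 the first was 1.10. For TAGLN and TAGLN2 the difference was 2.34 between days 9 and 0 (the same p) and 0.19 between days 90 and 9 (exact permutation p 0.821).

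LMOD1, leiomodin 1, which starts new actin filaments in smooth muscle (ENSG00000163431, chromosome 1, 201896452 to 201946588, minus strand), had the largest fall of the 9 genes from day 0 to day 1. Day 0 wells had 4.26, 3.19 and 3.56 CPM and day 1 wells 0.303, 0.289 and 0.280. The log2 change was -3.64 (SE 0.59, edgeR adjusted p 1.7e-05), and on log2(TPM + 1), with mean TPM of 0.543 and 0.05, it was -0.55 (limma adjusted p 0.56). LMOD1 then rose at every step to day 7, by 2.49 (SE 0.62, adjusted p 0.0021), 2.90 (SE 0.47, adjusted p 1.6e-05) and 2.62 (SE 0.35, adjusted p 1.2e-06) on the log2 scale with edgeR. On log2(TPM + 1) the first of these changes was 0.31 (limma adjusted p 0.76) and the second 1.08 (adjusted p 0.089), and on log2(TPM + 0.1) the first was 1.41 (adjusted p 0.067). Day 1 levels of LMOD1 were 0.498% to 0.576% of the mean of the other libraries in the same lane. Whether reads of those libraries contributed was not tested.

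LMOD1 overlaps 1 antisense gene, with the same doubt on strand as for MYH11. Day 7 wells had 99.5, 78.7, 67.9, 65.7 and 68.4 CPM of LMOD1. At day 11 replicates 1 and 2 had 28.5 and 25.2 CPM and the other wells 79.7, 81.2 and 77.0. Day 90 wells were close together, at 49.3, 50.5 and 53.8 CPM, and all lay below the day 30 wells, which had 61.3, 88.9 and 217. That change was not called (log2 change -1.26, SE 0.43, edgeR adjusted p 0.061) but was with DESeq2 (-1.23, adjusted p 0.039) and on TPM (-1.71 and -1.90, limma adjusted p 0.023 and 0.015). On those TPM scales the median difference in log2 change from the main fit was -0.71 and -0.83 over the genes in both fits. They called 2076 and 3983 of 13664 genes.

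SMTN, smoothelin (ENSG00000183963, chromosome 22, 31064105 to 31104757, plus strand), overlaps 1 gene on each strand, with the same doubt on strand. No single step of SMTN was called in the main fit. Without day 30 replicate 3, day 30 against day 20 was called lower (log2 change -1.32, edgeR adjusted p 0.02). Means were 17.4 ± 0.977 CPM at day 0 (SD, n = 3), 36.4 ± 8.41 at day 5, 68.1 ± 21.2 at day 9 and 37.7 ± 9.10 at day 11 (SD, n = 5 each). The difference between days 9 and 0 was called (log2 change 1.97, SE 0.36, edgeR adjusted p 2.1e-05), and all day 9 wells lay above all day 0 wells. Day 90 wells had 39, 63.0 and 26.5 CPM, the highest in replicate 4. The change from day 9 to day 90 was not called (log2 change -0.67, edgeR adjusted p 0.12). Without replicate 4 it was called lower (-1.05, edgeR adjusted p 0.032). Day 90 against day 0 was called at 1.3 (SE 0.38, edgeR adjusted p 0.0039), but was 0.93 without that well and 0.30 or 0.33 on TPM (limma adjusted p 0.63). In that comparison the median difference in log2 change between those TPM scales and the main fit was -0.83 and -0.94 over the genes in both fits.

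CALD1, caldesmon (ENSG00000122786, chromosome 7, 134744252 to 134970728, plus strand), makes a smooth muscle and a non-muscle form from 1 gene, which a count per gene does not separate. It was the steadiest of the 9 and was called in 0 of the 14 comparisons by edgeR, DESeq2 or limma. At an unadjusted p under 0.05 it moved in 3, namely days 3 against 1, 5 against 3 and 7 against 5. Its group means ran from 96.4 ± 16.0 CPM at day 3 to 323 ± 81.6 at day 14 (SD, n = 3 each). The change from day 3 to day 5 had an edgeR adjusted p of 0.027 with a log2 change of 0.77 (SE 0.25), below the fold of 1 on the log2 scale that a call needs.

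MYOCD (ENSG00000141052, chromosome 17, 12665890 to 12768949, plus strand) rose between days 1 and 3. Wells had 2.05, 1.86 and 2.14 CPM at day 0, 0.943, 1.13 and 0.965 at day 1, and 38.5, 16.7 and 10.1 at day 3. The day 1 levels were 0.622% to 0.764% of the mean of the other libraries in the same lane, whose contribution was not tested. The day 3 wells spread widely but all lay above every earlier well, and the log2 change was 4.42 (SE 0.41, edgeR adjusted p 1.1e-10). At that step TAGLN and ACTG2 were called lower, by the values given above, and ACTA2, MYH11, SMTN and CALD1 were not called. CNN1 and LMOD1 were called higher, to means of 21.0 and 1.66 CPM, against 19.2 and 3.67 at day 0.

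MYOCD overlaps 2 antisense genes, whose reads cannot be told apart from its own where strand was not used in the counting. MYOCD went on rising to 57.7, 45, 34.6, 53.4 and 55.7 CPM at day 5 (log2 change 1.18, SE 0.32, edgeR adjusted p 0.0067) and to 191 ± 34.1 at day 7 (SD, n = 5; log2 change 1.96, SE 0.27, edgeR adjusted p 1.8e-06). The first of these was lost without day 3 replicate 2 or 3 (adjusted p 0.056 and 0.093) and on TPM (limma adjusted p 0.082 and 0.06). From day 7 on, group means lay between 163 and 278 CPM. Day 90 wells had 131, 182 and 176 CPM, the highest of them replicate 4, in which ACTA2 was 30.5 CPM.

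**Figure D3:**
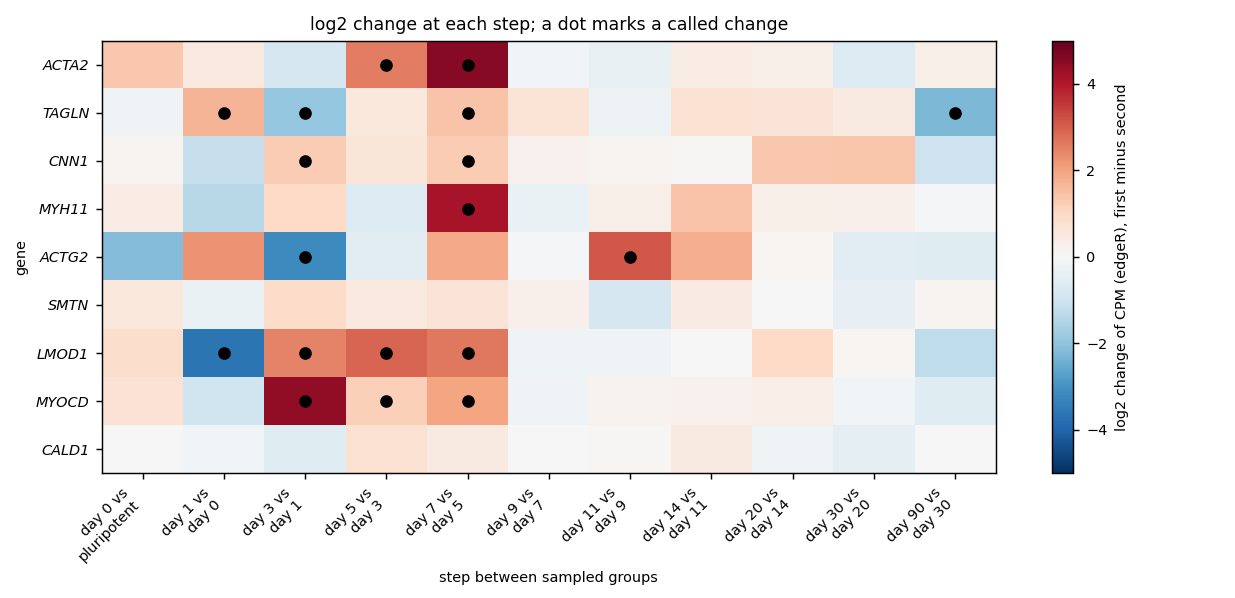
log2 change of each of the 9 genes (rows) at each of the 11 steps between sampled groups (columns), later group minus earlier group, in colour, with a dot where edgeR called the change. Day 7 against day 5 has 6 dots, the most of any step, and CALD1 and SMTN have no dot.

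Counted over the 9 genes, a change was called where the adjusted p was under 0.05 and the log2 change at least 1. Day 0 against pluripotent cells called 0 (of all genes tested 2.91% were called, 2.73% as higher and 0.183% as lower), with 2 at an unadjusted p under 0.05, and DESeq2 and limma also called 0. Day 1 against day 0 called 1 higher and 1 lower (13.5% of all genes, 3.86% higher and 9.66% lower). Day 3 against day 1 called 3 higher and 2 lower (17.8% of all genes, 11% higher and 6.8% lower). Day 5 against day 3 called 3 higher (10.1% of all genes, 5.75% higher and 4.34% lower). The median log2 change of the 9 was 0.61 at that step, and -0.02 over all genes.

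Day 7 against day 5 called 6 of the 9, all higher (3.65% of all genes were called, 2.74% higher and 0.906% lower). These were ACTA2, TAGLN, CNN1, MYH11, LMOD1 and MYOCD. All 9 had a change above 0, with a median of 1.91 against -0.01 over all genes. The other 3 were ACTG2 (1.91, edgeR adjusted p 0.28), SMTN (0.66, adjusted p 0.22) and CALD1 (0.45, adjusted p 0.27). Markers of heart muscle moved at the same step. Of 9 such markers 7 were called higher, among them TNNT2 and MYH6, and their summed level went to 8310 ± 1777 CPM at day 7 from 586 ± 169 at day 5 (SD, n = 5 each). Their part in the result was not tested.

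Later steps called few. Day 9 against day 7 called 0 by edgeR, DESeq2 and limma (by edgeR 1.28% of all genes, 1.02% higher and 0.261% lower) and 0 at an unadjusted p under 0.05. Day 11 against day 9 called ACTG2 alone (1.63% of all genes, 0.396% higher and 1.24% lower). Day 14 against day 11 called 0 (0.697% of all genes, 0.484% higher and 0.213% lower), with 2 at an unadjusted p under 0.05 and 0 by DESeq2 and limma. Without day 11 replicates 1 and 2 it called 1, ACTG2 (log2 change 5.62, edgeR adjusted p 1.7e-05). That fit called 2371 of all 22867 genes it tested.

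Day 20 against day 14 called 0 (0.0479% of all genes, all of them higher), with CNN1 and LMOD1 at an unadjusted p under 0.05 and 0 by DESeq2 and limma. Day 30 against day 20 called 0 (2.02% of all genes, 0.758% higher and 1.26% lower), with CNN1 at an unadjusted p under 0.05, called by DESeq2 (log2 change 1.37, adjusted p 0.024) and not by limma. Day 90 against day 30 called TAGLN alone, as lower (5.09% of all genes, 2.65% higher and 2.44% lower).

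Across longer spans, 7 of the 9 were called higher at day 9 than at day 0, where 31.7% of all genes were called, 17.1% higher and 14.6% lower. ACTG2 and CALD1 were the exceptions. ACTA2 changed by 6.60 (SE 0.67, edgeR adjusted p 2.1e-10), MYOCD by 6.39 (SE 0.42, adjusted p 4.4e-15) and LMOD1 by 4.15 (SE 0.47, adjusted p 3.4e-09). TAGLN, CNN1, MYH11 and SMTN changed by 1.97 to 2.68. MYH11 was lost on log2(TPM + 1), with a change of 0.63 (limma adjusted p 0.17). The median of the 9 was 2.44, and 0.08 over all genes.

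Day 90 against day 9 called CNN1, MYH11 and ACTG2, all higher (23.9% of all genes were called, 11.9% higher and 12% lower), with ACTG2 changed by 3.89 (SE 0.84, edgeR adjusted p 0.00028). The median of the 9 was -0.10. On log2(TPM + 0.1) the median difference in log2 change from the main fit was -0.56 over the genes in both fits. ACTA2 was called lower there (-1.42, limma adjusted p 0.036), a change of -0.10 with edgeR on counts. Day 90 against day 0 called 8 of the 9, all but CALD1, as higher (40% of all genes were called, 20.8% higher and 19.2% lower). On TPM the change of TAGLN was 0.53 and 0.54 (limma adjusted p 0.45 and 0.44), against 1.76 with edgeR on counts (adjusted p 0.0049). In this comparison the median difference in log2 change between the TPM scales and the main fit was -0.83 and -0.94 over the genes in both fits. ACTG2 was also lost on log2(TPM + 1) (1.43, limma adjusted p 0.051), as was SMTN on either TPM scale. These 3 spans share wells at days 0, 9 and 90, so their values are not independent.

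Day 90 replicate 4 stood apart within the set, as the plot of wells at days 11 and 90 shows. ACTA2 was 30.5 CPM in it against 523 and 663, TAGLN 54.9 against 250.2 and 297, MYH11 9.81 against 61.7 and 66.6, and ACTG2 2.23 against 20.2 and 23.0. CNN1 (296 against 331 and 357), LMOD1 (50.5 against 49.3 and 53.8) and MYOCD (182 against 131 and 176) differed little. SMTN was highest in this well (63.0 against 39 and 26.5) and CALD1 lowest (128 against 309 and 189). The 9 genes therefore did not move together in this well.

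The same well had a summed level of 9 cardiomyocyte markers of 56227 CPM against 17694 and 22799, and of 10 fibroblast and epicardial markers of 687 against 2859 and 4741. PDGFRB, a receptor of mural cells, was 3.97 CPM against 44.8 to 68.8, and ITGA8 1.88 against 25.4 to 50.5. MYL9 was 1052 against 960 to 1046 and SRF 104 against 107 to 111. The summed level of 8 pericyte and mural markers was 487 against 372 and 389. The part of these in the result was not tested.

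Day 11 replicates 1 and 2 differed from the other 3 wells in a partly different set of members. CNN1 was 53.7 and 44.4 CPM against 123 to 139, LMOD1 28.5 and 25.2 against 77.0 to 81.2, and ACTG2 18.1 and 24.6 against 0.518 to 0.890. ACTA2 was 427 and 368 against 280 to 310.4 and CALD1 286 and 363 against 169 to 186. MYOCD was 185 and 91.9 against 208.5 to 255. TAGLN, MYH11 and SMTN overlapped between the 2 sets of wells.

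In these 2 wells the cardiomyocyte markers summed to 7990 and 5246 CPM against 19549 to 20851, the 6 endoderm and liver markers to 4504 and 8596 against 158 to 171, and the fibroblast and epicardial markers to 1515 and 2845 against 809 to 1032. Their RNA integrity numbers were 8.6 and 8, against 9.2 to 9.5. Their part in the result was not tested.

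**Figure D4:**
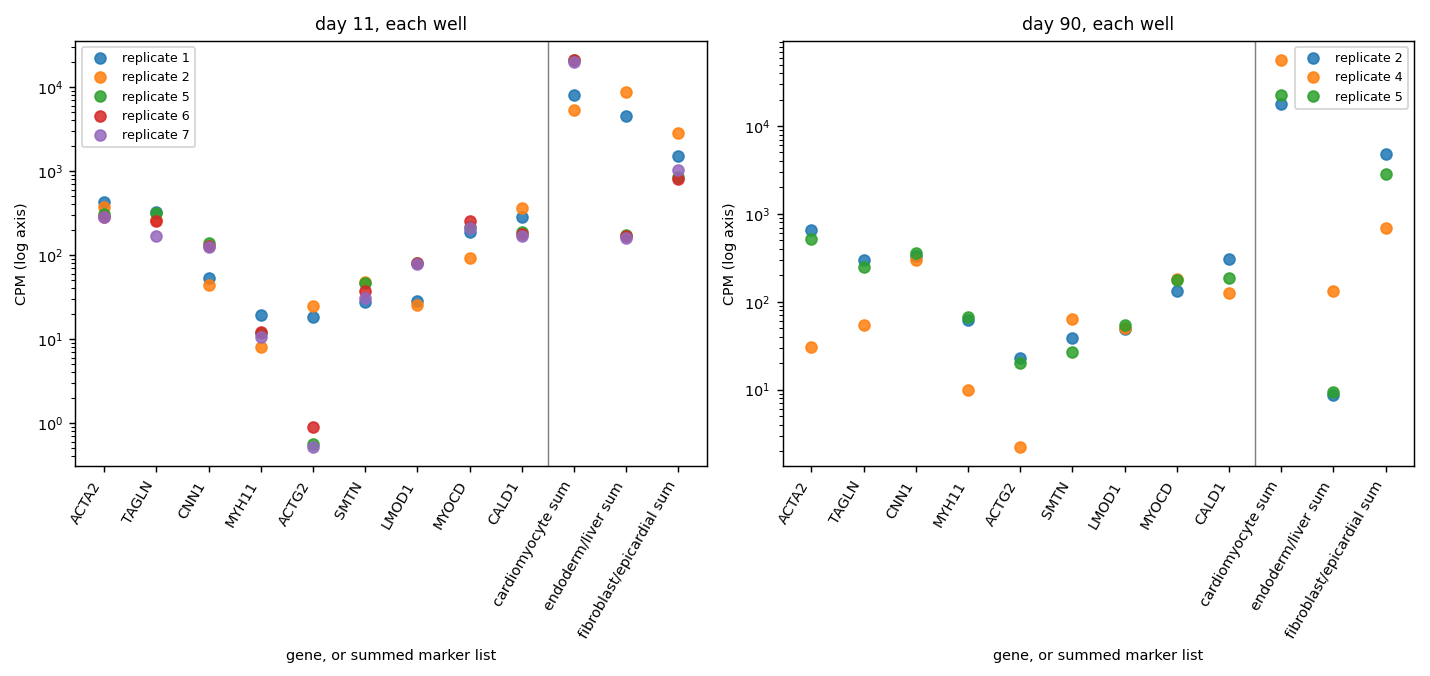
CPM (log axis) of the 9 genes and of 3 summed marker lists in each well of day 11 (left) and day 90 (right), 1 colour per well. ACTG2 separates day 11 replicates 1 and 2 (18.1 and 24.6) from the other wells (at most 0.890), and day 90 replicate 4 is low in ACTA2, TAGLN, MYH11 and ACTG2 and high in the cardiomyocyte sum.

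Per transcript length, the make-up of the set changed with time. TAGLN held 73.3 ± 7.76% of the summed TPM of the 9 genes at day 1 (SD, n = 3), ACTA2 held 47.1 ± 4.23% at day 7 (SD, n = 5), and at day 90 CNN1 held 32.3 ± 18.1% and ACTA2 29.2 ± 20.3% (SD, n = 3 each). The day 90 wells were not alike. ACTA2 was above CNN1 in replicates 2 and 5 (157 against 70.5 TPM and 115 against 73.1 TPM) and below it in replicate 4 (9.67 against 86.5 TPM). In pluripotent wells TAGLN (49.8 ± 3.19%) and CALD1 (32.2 ± 2.99%) together held most of it. MYH11 stayed below 1% in the mean of each of the 12 groups, with 0.255 ± 0.114% at day 7 and 0.646 ± 0.284% at day 90.

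Ordered by mean CPM over the 12 groups, most neighbours overlapped in their wells. For ACTA2, 8 of 11 neighbouring pairs overlapped, and the exceptions were day 11 above day 5, day 5 above day 1 and day 3 above pluripotent cells. TAGLN, ACTG2 and CALD1 had 10 overlapping pairs each, MYH11 and SMTN 9, CNN1 and MYOCD 8, and LMOD1 7. The highest group mean was at day 30 for TAGLN, CNN1, MYH11 and LMOD1, at day 20 for ACTA2, ACTG2 and MYOCD, at day 9 for SMTN and at day 14 for CALD1. For MYH11 the day 30 mean rested on replicate 1, at 117 CPM. The other 2 wells, at 13.0 and 15.8, lay below every well of days 14 and 20.

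Over the 12 group means of log2 CPM, which share the same wells, ACTA2 ran closest to LMOD1 (Pearson's r 0.94) and MYOCD (0.93) within the set, and ACTG2 was least like SMTN (0.10) and MYOCD (0.33). Among 12085 genes ranked, those most like ACTA2 were SGPP2 (0.992), MYH6 (0.989), the atrial-type heavy chain of heart muscle, and NKX2-5 (0.987), a cardiac transcription factor. MYOCD was most like ADGRD1 (0.993), SMARCD3 (0.992) and DPF3 (0.992), the last 2 being parts of chromatin remodelling complexes of the heart. CNN1 was most like LMOD2 (0.987), the leiomodin of heart muscle, TNFAIP1 (0.982) and SSH2 (0.979). For the others the closest were ABHD2 for TAGLN (0.971), SORBS2 for MYH11 (0.978), ATP6V0C for ACTG2 (0.968), SH3TC1 for SMTN (0.974), PRKCH for LMOD1 (0.981) and CFTR for CALD1 (0.965). These coefficients describe 12 points and carry no test.

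Of 12 enzymes, channels and other genes that drive or regulate smooth muscle contraction, 3 were called higher from day 5 to day 7, namely MYL9 (regulatory light chain), PPP1R12B (a myosin phosphatase subunit) and KCNMB1 (a potassium channel subunit), where 2.74% of all genes were called higher. At day 9 against day 0, 4 of the 12 were called higher and 2, PRKG1 and PDE5A, lower (17.1% and 14.6% of all genes). The median change of the 12 was 0.22 there, against 0.08 over all genes. From day 9 to day 90, 5 were called higher and 0 lower (11.9% and 12% of all genes), and the median change of the 12 was 0.51 against -0.02 over all genes. PDE5A was also called lower at day 90 against day 0. MYL9 had 165 ± 59.5 CPM at day 9 (SD, n = 5) and 1020 ± 51.3 at day 90 (SD, n = 3), a log2 change of 2.63 (SE 0.24, edgeR adjusted p 4.3e-11). MYLK, the kinase that starts contraction, was called higher (1.37, SE 0.33, edgeR adjusted p 0.00098), but day 90 wells 2 and 5 had 60.1 to 140 CPM and replicate 4 had 14.6.

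Of 14 actin filament and adhesion genes, 6 were called higher and 0 lower at day 9 against day 0 (17.1% and 14.6% of all genes), and 5 higher and 1 lower at day 90 against day 9 (11.9% and 12% of all genes). Their median log2 changes were 0.85 and 0.23, against 0.08 and -0.02 over all genes. DES, desmin, went from 3.00 ± 0.435 CPM at day 0 (SD, n = 3) to 51.1 ± 14.1 at day 9 (SD, n = 5) and 288 ± 40.5 at day 90 (SD, n = 3). SYNPO2 had 75.0 ± 3.75 CPM at day 90 against 10.4 ± 6.29 at day 9 (log2 change 2.85, SE 0.26, edgeR adjusted p 4.1e-11). Desmin and TPM1 are also made by heart muscle.

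Among 16 relatives of the 9 genes, 3 were called higher and 1 lower from day 0 to day 9 (17.1% and 14.6% of all genes). From day 9 to day 90, 2 were called higher and 5 lower (11.9% and 12% of all genes). Their median log2 changes were 0.12 and -0.82, against 0.08 and -0.02 over all genes. The non-muscle calponin CNN2 had 289 ± 46.0 CPM at day 9 (SD, n = 5) and 97.5 ± 33.3 at day 90 (SD, n = 3), a log2 change of -1.57 (SE 0.31, edgeR adjusted p 8.3e-05). LMOD2 was 12 ± 13 CPM at day 9 and 184 ± 19.2 at day 90 (log2 change 3.94, SE 0.65, edgeR adjusted p 5.5e-06), while LMOD1 changed by -0.35 (adjusted p 0.51) over the same span.

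Of 17 regulators of the smooth muscle programme, 9 were called higher and 0 lower at day 9 against day 0 (17.1% and 14.6% of all genes), with a median log2 change of 1.89 against 0.08 over all genes. They included the growth factors TGFB1, TGFB2 and TGFB3 and the Notch ligand JAG1, which had 84.3 ± 0.904 CPM at day 0 (SD, n = 3), 498 ± 133 at day 7 (SD, n = 5) and 75.7 ± 10.7 at day 90 (SD, n = 3). SRF itself was 51.3 ± 7.44 CPM at day 0 and 66.3 ± 20.5 at day 9 (log2 change 0.37, SE 0.39, edgeR adjusted p 0.45), and MRTFA, another SRF coactivator, 32.6 ± 3.06 and 33.9 ± 7.03 (0.06, SE 0.26, adjusted p 0.87). MYOCD was 83.9-fold higher over that span. By day 90 SRF was called higher than at day 0 (1.07, SE 0.43, edgeR adjusted p 0.036). NOTCH3, a receptor of arterial smooth muscle, was called lower at day 90 than at day 0 (-1.90, SE 0.30, edgeR adjusted p 1.5e-06).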

How the data were processed

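RNA of 44 wells of the H1 line was sequenced with a stranded total RNA kit, per the labels' protocols. The authors deposited estimated counts and TPM per gene. The submitters' processing notes name cutadapt, STAR 2.5.2b, RSEM 1.2.31 and hg38, with no role given, and the strand setting of the counting is not given in the sources used here. RNA integrity, a score per library, was deposited by the authors in the file of sample annotations. Gene identifiers were named with GENCODE 29, which matched 56769 of 60499.

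Of the estimated counts 93.8% were whole, and the rest were rounded. Low counts were removed with filterByExpr, libraries were scaled by TMM, and 1 edgeR 4.0.16 quasi-likelihood fit (R 4.3.3) covered all 44 libraries, with Benjamini-Hochberg adjustment over 22955 genes. A call needed an adjusted p under 0.05 and a log2 change of at least 1. Ratios of TPM (pseudocount 0.1) were compared by two-sided exact permutation tests, adjusted over 8. Alternatives were DESeq2 1.42.0, limma 3.58.1 on log2 TPM, other scalings and filters, fits of the compared groups alone, lane or replicate terms, and single wells left out. Totals were 6937136 to 33498022 counts, and 3 counts were taken as the floor, which covers counting error only.

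The genes named are the 9 members, the genes of fixed lists and, for each member, the 3 protein-coding genes with a mean CPM of at least 10 in some group whose group means correlate best with it. The members and lists were chosen with earlier results of these data known. Leaving out day 11 wells 1 and 2 was chosen after seeing the data.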

Additional observations from a re-analysis of the deposited data

Results flagged for a closer look

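Among 36 sets of 5 wells (9 genes at days 5, 7, 9 and 11), 2 held a well far from the other 4 by Dixon's criterion, and chance flags about 1 in 20 sets. TAGLN in day 7 replicate 10 was 328 CPM, the highest of 5, with the others from 142 to 178. CALD1 in day 5 replicate 3 was 242 CPM, the highest of 5, with the others from 140 to 148.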

How the results depend on the processing

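The number of the 9 genes called at day 9 against day 0 (7), day 90 against day 9 (3), day 9 against day 7 (0) and day 20 against day 14 (0) stayed within 1.5 times its value under the alternatives run. For day 0 against pluripotent cells it was 0, and 2 in a fit of those groups alone, which called 1592 of 17557 genes. For day 1 against day 0 it was 2, and 4 with DESeq2, 0 and 1 with limma on log2(TPM + 1) and log2(TPM + 0.1), 5 with those groups alone, and 1 to 2 with single wells left out. Over all genes DESeq2 called 3299 of 22955, limma 799 and 885 of 13664, and the groups alone 3812 of 17896. For day 3 against day 1 it was 5, and 2 and 3 on the same TPM scales (1573 and 1857 of 13664 genes), and 3 to 5 with single wells left out. On log2(TPM + 1) it was 1 in place of 3 for day 5 against day 3, 3 in place of 6 for day 7 against day 5, and 5 in place of 8 for day 90 against day 0. Single wells left out gave 2 to 3, 4 to 6 and 7 to 8 there. Of 13664 genes log2(TPM + 1) called 970, 258 and 6295 in these comparisons. The 1 gene of day 11 against day 9, ACTG2, was lost (0) on both TPM scales, with those groups alone, with sequencing lane as a term and without day 11 wells 1 and 2, where its log2 change was -0.65, and the range without single wells was 0 to 1. Without those wells day 14 against day 11 called 1 (2371 of 22867 genes). For day 11 against day 9 the TPM scales called 23 and 6 of 13664 genes and the groups alone 331 of 17655. The lane fit called 315 of 22955 there, and the fit without day 11 wells 1 and 2 called 862 of 22867. Day 30 against day 20 called 1 with no filter on low counts (482 of 46084 genes) and with DESeq2 (714 of 22955), and 0 to 1 without single wells. Day 90 against day 30 called 1, and 2 with no filter, 2 with DESeq2, 4 on either TPM scale, 0 with those groups alone, and 1 to 3 without single wells. Over all genes no filter called 1083 of 46084, DESeq2 1381 of 22955 and the TPM scales 2076 and 3983 of 13664. The groups alone called 2 of 17049. Differences in log2 change from the main fit were taken over the genes in both fits. Their median was up to 0.94 in size on TPM and at most 0.09 in other settings. Beyond these constructions the cause was not tested.

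The log2 ratio of ACTA2 to ACTC1, day 9 against day 0, was 0.03 with a pseudocount of 0.01 and -0.21 to 0.09 without single wells. That of TAGLN to TAGLN2, day 90 against day 9, was -0.46 to 1.06. No comparison of 3 or more pairs had every same-numbered pair of wells correlated over 0.1, so the numbers were not taken to pair wells. The 2 same-numbered pairs of days 14 and 20 correlated at 0.553 and 0.611 and those of days 11 and 14 at 0.102 and 0.342, and day 20 replicates 2 and 3 were closest to day 14 replicates 2 and 3, a hint from the data that the labels do not speak to. With the replicate block, day 1 against day 0 called 4 (CNN1 and ACTG2 added) and day 90 against day 30 called 2 (LMOD1 added), and no other count changed. Of 22955 genes that fit called 3210 and 1336 in these 2 comparisons.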
